A study of Mus musculus with 6 samples.

Results

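The CHD family, 9 mouse genes (Chd1 to Chd9) for chromodomain helicase DNA-binding proteins, was followed in cultured astrocytes in which Chd7 was targeted by Cre. Members were taken from the platform's gene symbols, which gave 12 probes, 2 each for Chd3, Chd7 and Chd8 and 1 each for the other 6 genes. All 12 had a deposited value on all 6 arrays, so all passed the requirement of a value on at least 3. The 9 genes stood among 19321 named genes on the array. The astrocytes came from the cortex of C57BL/6J mice at postnatal day 0 (P0), and every culture, the controls included, carried the Chd7flox/flox alleles. Of the 6 samples, 3 had received a control lentivirus and 3 a lentivirus carrying the Cre recombinase, and all were harvested 3 days after infection from medium with FGF2, EGF, B-27 and 10% serum. Total RNA of each sample was labelled with Cy5 and read on its own array. The labels give neither the promoter that drives Cre, nor the content of the control virus, nor the share of infected cells. Cre and the loss of Chd7 came together, so that their effects cannot be told apart.

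CHD proteins move or restructure nucleosomes with the energy of ATP. They pair tandem chromodomains with a helicase-like motor of the SNF2 type and are usually sorted into subfamily I (Chd1 and Chd2), subfamily II (Chd3, Chd4 and Chd5, the motor subunits of the NuRD complex) and subfamily III (Chd6 to Chd9). CHD7 binds enhancers and is known for its part in neural stem cells, the neural crest and the oligodendrocyte lineage; loss of 1 human copy causes CHARGE syndrome.

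Blank spots, which carry no probe, averaged 62.4 to 70.8 intensity units, and spots brighter than that mean by over 2 SD were taken to be above background, which held for 82.8 to 90.7% of all probes on an array. The number of arrays limits the precision. All 12 astrocyte markers looked at (Gfap, Aldh1l1, Aqp4 and others) were above background on all 6 arrays. So were 10 of 12 microglia markers, 9 of 9 measured oligodendrocyte lineage markers, 10 of 10 neuronal markers and 7 of 8 fibroblast and mural markers, but only 3 of 7 endothelial markers. Itgam, Cldn5 and Tek were not above background on any array. The limit was a low one, below the brightest of the 96 negative control spots of each array (67.1 against 72.0 units on control replicate 1). Gjb6, an astrocyte marker counted as above background, had log2 means of only 5.80 (control) and 5.82 (Cre). Chd8 M400001836, which exceeded the brightest negative control spot on 0 of 6 arrays, had 5.79 and 5.82. Passing the limit therefore does not show that a dim marker was expressed. The summed deposited values of the 12 microglia markers ranged from 366 to 399 in control and from 283 to 367 in Cre cultures, and those of the astrocyte markers from 4869 to 8665 and from 6489 to 8271. In the deposited values the median difference of all probes, Cre minus control, was itself -0.17 log2 units. This shift also bears on the deposited values given below. In the normalised values no marker passed after adjustment. At an unadjusted limma p under 0.05, 4 of 11 tested microglia markers were lower in Cre cultures, C1qa (-0.67 log2 units), C1qb (-0.71), C1qc (-0.37) and Tyrobp (-0.26), and 1 was higher, Cd68 (0.48). By the same measure 4 of 12 astrocyte markers were higher, among them Aldh1l1 (0.72) and Aqp4 (0.31), and 0 were lower, where 2.85% of all probes were lower and 2.77% higher. Of 10 neuronal markers, 2 were higher, Nefm (0.39) and Nefl (0.16), and 1 was lower, Stmn2 (-0.34). Of the oligodendrocyte lineage, fibroblast and mural, and endothelial markers, 0 were lower and 0 higher. The part of these marker differences in the CHD values was not tested.

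Chd7, the targeted gene, had groups that did not overlap on 1 of its 2 probes, lower in Cre than in control cultures. The deposited values of the brighter probe, M300016343, were 42, 89 and 46 intensity units in control replicates 1, 2 and 3, and 8, 7 and 8 in Cre replicates 1, 2 and 3. The groups did not overlap, and control replicate 2 read about as high as the other 2 controls together. The means were 59.0 ± 26.1 and 7.67 ± 0.58 (SD, n = 3 each), the Cre mean being 13% of the control mean. On the scanner's own scale the spot read 131, 233 and 131 in control and 86.0, 73.2 and 84.5 in Cre cultures. In Cre cultures this was still above the brightest of the 96 negative control spots of the same array (83.0, 71.0 and 82.0), but by no more than 3 units. In whole cultures, fewer cells that express Chd7 and less Chd7 RNA per cell cannot be told apart.

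**Figure D1:**
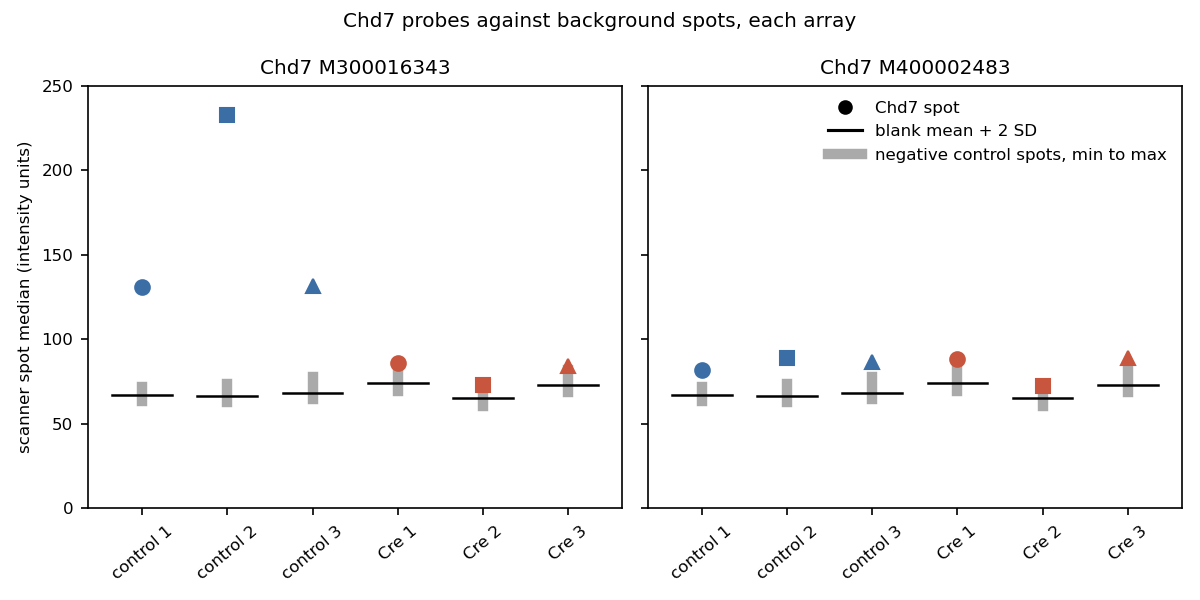
Scanner spot medians (intensity units) of the 2 Chd7 probes on each of the 6 arrays, with the background limit of each array (black line, mean of the blank spots plus 2 SD) and the range of its 96 negative control spots (grey bar). The M300016343 spots lie at 131 or above on control arrays and at 86.0 or below on Cre arrays, next to the negative controls; the M400002483 spots lie between 72.4 and 89.2 on all arrays.

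After background correction and normalisation, M300016343 stood at 6.92, 7.49 and 6.95 log2 units in control and 6.00, 5.97 and 6.01 in Cre cultures. The difference was -1.13 log2 units (SE 0.16, 95% interval -1.53 to -0.74), or 2.19-fold, and it was negative in each same-numbered pair (-0.93, -1.53 and -0.95). An adjusted p under 0.05 was reached by 0 of the 12 CHD probes and by 0% of the 20540 probes tested. The limma adjusted p of M300016343 was 0.405, the same as the smallest on the array, while its unadjusted limma p of 0.000516 ranked 24 among all probes. By exact permutation of the arrays (two-sided) the p was 0.1, and 3 arrays against 3 allow none smaller. At an unadjusted limma p under 0.05, 1 of the 12 CHD probes was lower and 0 were higher, against 2.85% lower and 2.77% higher among all probes (5.61% in either direction). A difference of at least 2-fold downwards was shared by 5 probes on the array, or 0.0243%, and M300016343 ranked 3 among them.

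The size of the Chd7 difference moved with the handling of low signal. With a smaller offset added after correction (16 in place of 50) it was -1.83, or 3.54-fold, and with no background correction it was -0.97, or 1.95-fold. Plain subtraction of the blank mean, which also drops the offset, gave -2.71 (6.54-fold), and the authors' deposited values, which differ in scaling as well, gave -2.86 (7.27-fold). With the scanner's local background it was -0.52 (1.44-fold). Without control replicate 2 it was -0.92, with the smallest limma adjusted p of any setting run (0.0719).

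The dimmer Chd7 probe, M400002483, read 11, 13 and 14 in control and 9, 6 and 11 in Cre cultures in the deposited values, that is 68.4% of the control mean. The groups touched at 11. On the log2 scale its difference was -0.11 (SE 0.06, 95% interval -0.25 to 0.04; limma adjusted p = 0.998), again negative in each pair (-0.03, -0.19 and -0.09). Being lower in all 3 pairs was measured for 15.5% of all probes. The 2 probes of this gene thus differed in the size of their log2 difference. M400002483 averaged 6.14 log2 units in control cultures, while M300016343 averaged 5.99 in Cre cultures, next to the negative controls. Chd8 M400001836 stood lower than either, at 5.79 in control and 5.82 in Cre cultures. With plain subtraction of the blank mean, M400002483 differed by -0.42 and M300016343 by -2.71. The part of low signal in this difference of size was not tested, and whether the probes disagree on Chd7 cannot be decided here. The log2 value of M300016343 less that of M400002483 was 0.85, 1.36 and 0.75 on the control arrays and -0.04, 0.02 and -0.10 on the Cre arrays, without overlap (exact permutation p = 0.1, the smallest possible). This gap largely restates the separation of M300016343, since M400002483 differed little between the groups. The labels do not place either probe relative to the floxed part of Chd7.

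**Figure D2:**
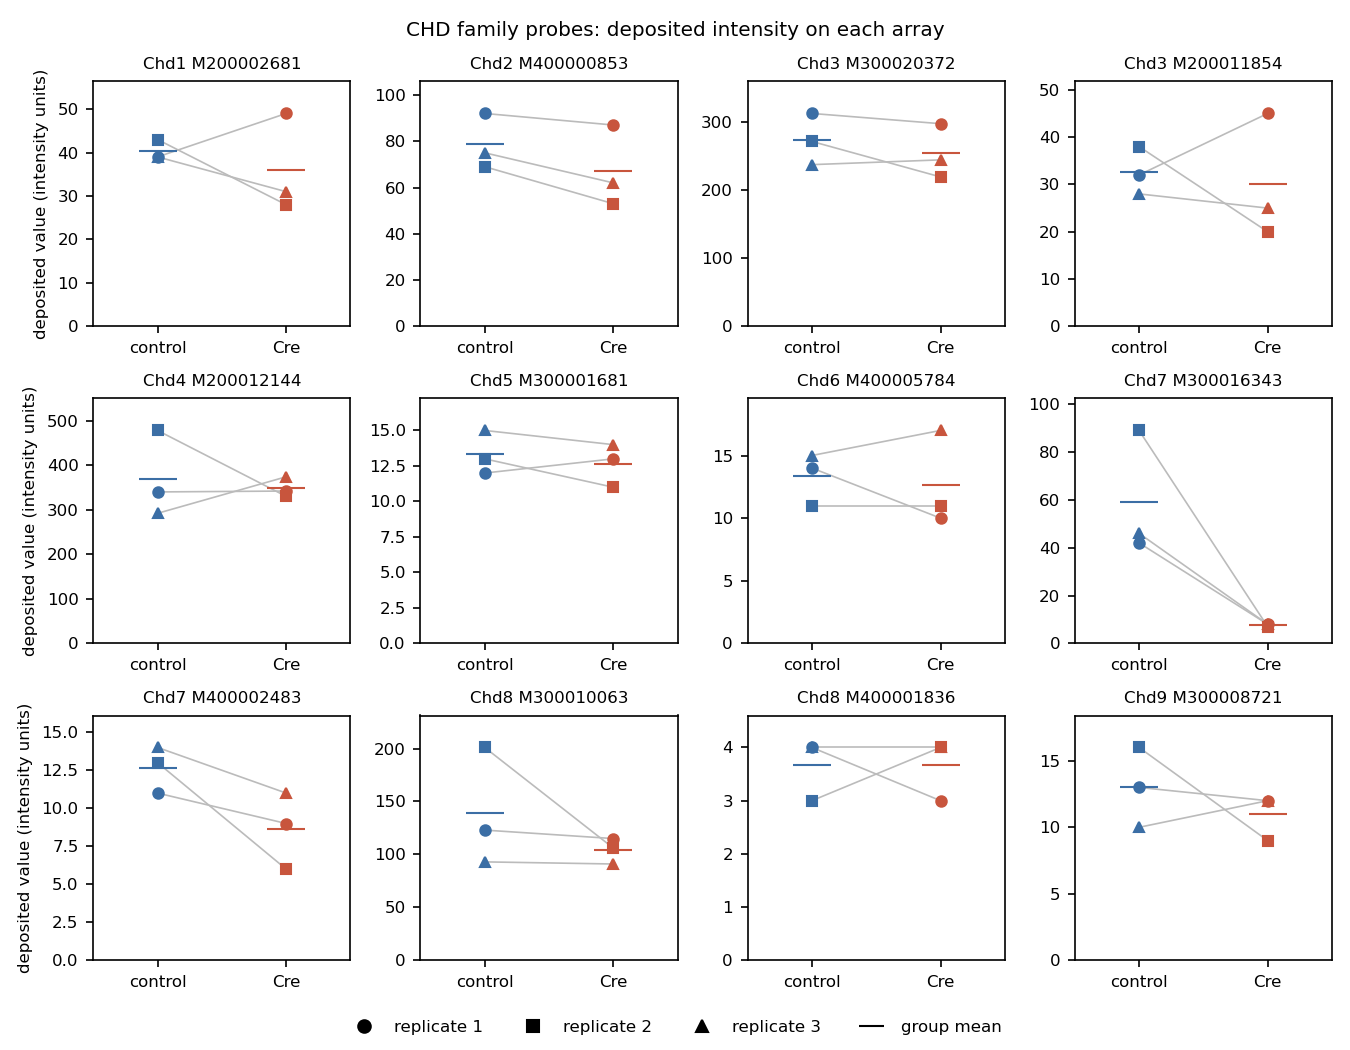
Deposited intensity values (linear scale from 0, 1 panel per probe with its own axis) of the 12 CHD probes in control and Cre cultures; symbols mark the replicate number, grey lines join same-numbered samples and bars are group means (n = 3). Chd7 M300016343 is the probe whose groups are apart, at 42 to 89 against 7 to 8; the other 11 panels overlap or touch.

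The 8 paralogs of Chd7, on 10 probes, did not separate the groups. Their differences ran from -0.15 (Chd8) to 0.12 (Chd4) log2 units, 5 below and 5 above 0, with a median of -0.01 beside -0.0006 for all probes. All 10 overlapped between the groups, and 0 of 10 reached an unadjusted limma p under 0.05 (lowest 0.411, limma adjusted p 0.999 for each). Of the 12 CHD probes, 1 had groups that did not overlap, against 10.5% of all probes (5.31% lower in Cre cultures). These p-values do not show that the paralogs were equal between the groups. The intervals, also where given in percent, hold for the normalised values, to which an offset was added after background correction. The offset shrinks differences, most of all for dim probes, so changes in RNA could be larger than these intervals allow.

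In subfamily I, Chd1, a remodeller that travels with elongating RNA polymerase II and recognises trimethylated H3K4, stood at 39, 43 and 39 in control and 49, 28 and 31 in Cre cultures in the deposited values. The control values were close together and the Cre values lay on both sides of them. The log2 difference was -0.03 (SE 0.10), with an interval of -17.2 to 16.4%. Without Cre replicate 1, the high one, it was -0.14, at an unadjusted limma p of 0.0235 and an adjusted p of 0.999. Chd2, its closest relative and a human epilepsy gene, stood at 92, 69 and 75 in control and 87, 53 and 62 in Cre cultures. Replicate 1 was the highest in both groups. The log2 difference was -0.07 (SE 0.15), with an interval of -26.6 to 22.8%.

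Subfamily II holds the alternative motors of NuRD, a complex that joins remodelling to histone deacetylation. Chd4, the motor of NuRD in most tissues, read 340, 478 and 292 in control and 342, 330 and 374 in Cre cultures. Its Cre values lay inside the control range. The log2 difference was 0.12 (SE 0.14), with an interval of -15.6 to 39.0%, and it came from pair 3 (0.45), since pairs 1 and 2 stood at -0.02 and -0.08. Without control replicate 2, the highest in the deposited values, it was 0.24, and without control replicate 3 it was -0.03.

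Chd3, a second NuRD motor, had 2 probes with differences of opposite sign, both near 0. The brighter, M300020372, read 312, 271 and 237 in control and 297, 219 and 244 in Cre cultures. On the log2 scale it differed by 0.06 (SE 0.15). It was 0.21 without control replicate 1. The dimmer, M200011854, read 32, 38 and 28 in control and 45, 20 and 25 in Cre cultures. Its log2 difference was -0.03 (SE 0.14). It was -0.18 without Cre replicate 1. The Cre cultures had the wider spread on the dimmer probe (SD 13.2, against 5.03 in control), with replicate 1 high. RefSeq's table lists Chd7 among the older synonyms of Chd3, but both probes carry the Entrez identifier of Chd3.

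Chd5, a NuRD motor known from neurons, was dim at 12, 13 and 15 in control and 13, 11 and 14 in Cre cultures, and the groups overlapped. Its log2 difference was 0.04 (SE 0.04), positive in each pair (0.05, 0.03 and 0.02) on that scale, with an interval of -4.40 to 9.97% that the offset for dim probes narrows.

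In subfamily III, the closest relatives of Chd7, Chd8 had the largest difference of any paralog and the widest interval. Chd8, a repressor of beta-catenin signalling and an autism gene in humans, read 123, 201 and 93 in control and 115, 106 and 91 in Cre cultures on its brighter probe, M300010063. Control replicate 2 stood apart and the other controls lay close to the Cre values. The log2 difference was -0.15 (SE 0.21, interval -37.0 to 28.6%). Without control replicate 2 it was 0.04, and without control replicate 3 it was -0.34. The second Chd8 probe, M400001836, carried little signal, at 3 to 4 units on all arrays. It passed the background limit on 6 of 6 arrays but exceeded the brightest negative control spot on 0 of 6, unlike the other 11 CHD probes, which did so on all 6. Its log2 difference of 0.02 (SE 0.03) therefore says little about Chd8.

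Chd6 and Chd9 were both dim. Chd6, a remodeller linked to oxidative stress responses, read 14, 11 and 15 in control and 10, 11 and 17 in Cre cultures. The difference was 0.02 log2 units (SE 0.08, interval -11.2 to 15%). Its Cre values spread to both sides of the controls. Chd9, first described in mesenchymal progenitor cells, read 13, 16 and 10 in control and 12, 9 and 12 in Cre cultures. The difference was -0.04 log2 units (SE 0.06, interval -11.8 to 7.10%). The group means of these 2 genes and of Chd5 lay between 6.11 and 6.19 log2 units, where the offset shrinks differences.

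**Figure D3:**
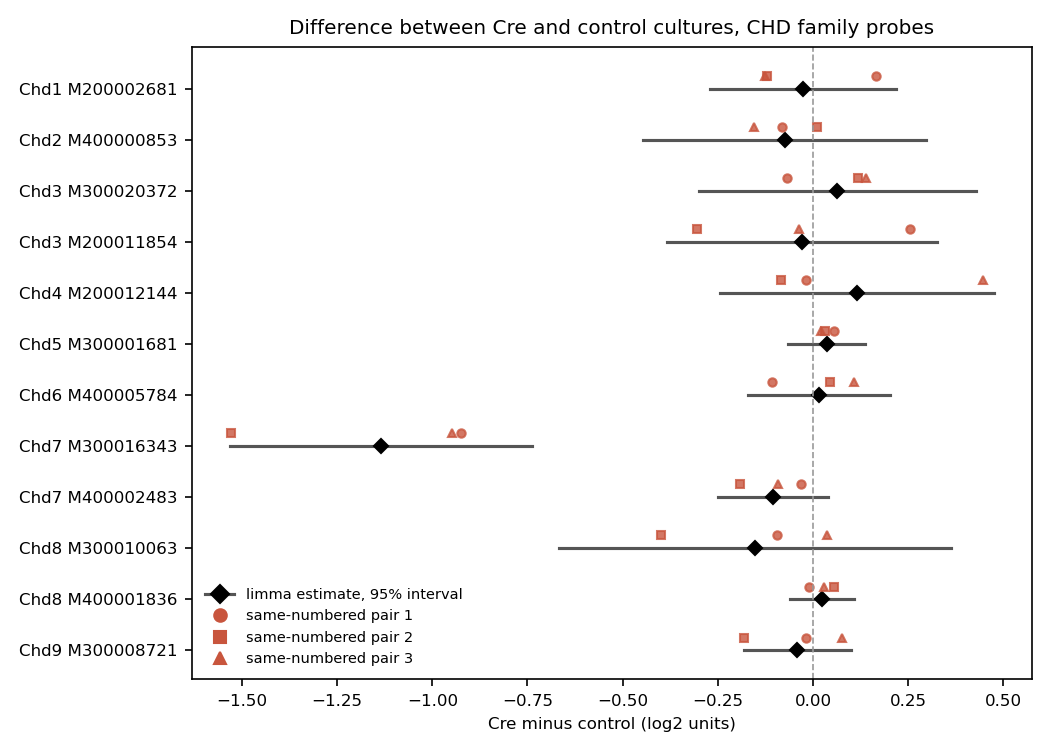
Log2 difference between Cre and control cultures for the 12 CHD probes, with limma's estimate (diamond), its 95% interval (line) and the 3 same-numbered pairs (symbols above the line). The interval of Chd7 M300016343 runs from -1.53 to -0.74, and the 10 paralog probes lie between -0.15 and 0.12 with intervals that include 0.

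The Chd7 difference was also set against the other CHD probes within arrays, by the log2 value of M300016343 less that of each of the 11, of which 10 are of paralogs and 1 is the second Chd7 probe. In each, the 3 Cre arrays lay below the 3 control arrays, by -1.25 (against Chd4) to -0.98 log2 units (against Chd8 M300010063). Each gave an exact permutation p of 0.1, the smallest possible with these arrays, and 0.1 after Benjamini-Hochberg adjustment over the 11. All 11 share the M300016343 values and, since the other probes differed little between the groups, largely restate its own separation; that against Chd8 M400001836 rests on a probe at the level of the negative controls. When the local background served for correction, the paralog differences spread to between -0.67 (Chd8 M300010063) and 0.64 (Chd4), and Chd7 at -0.52 lay within that range.

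**Figure D4:**
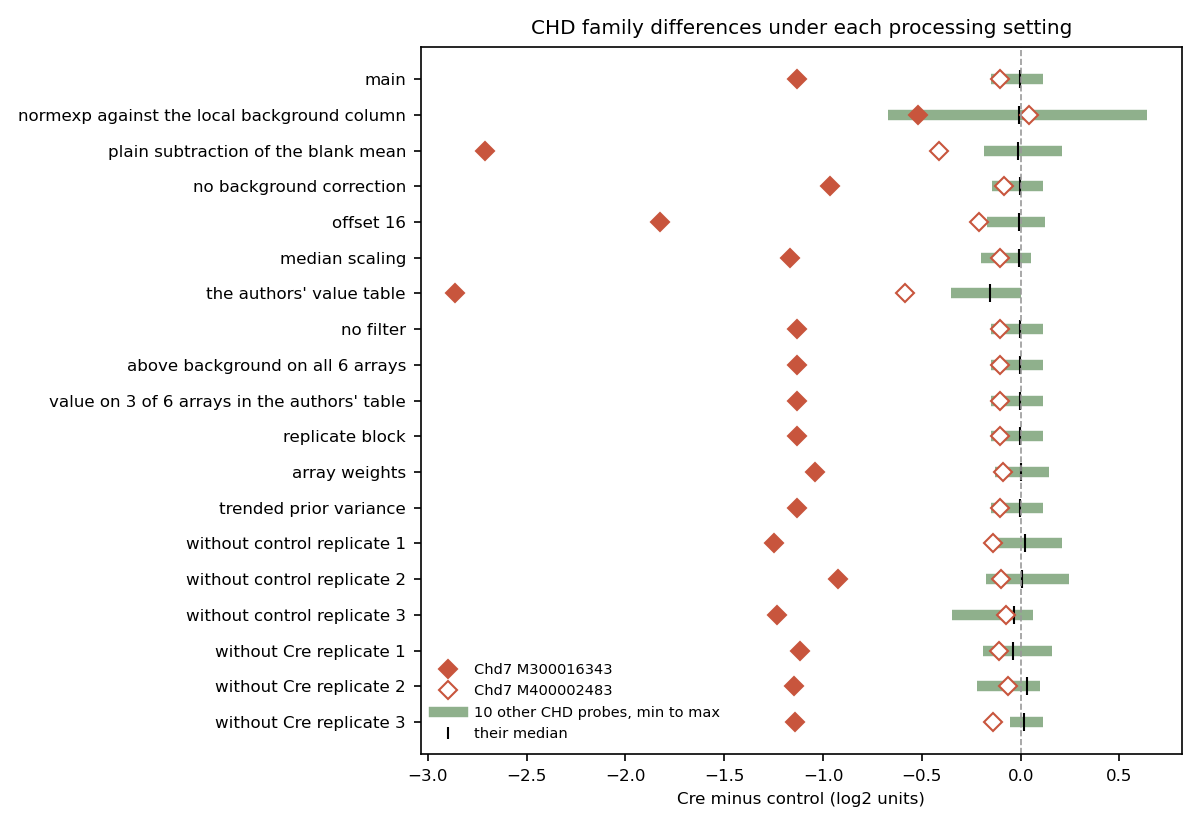
Log2 difference between Cre and control cultures (horizontal axis) under the main setting and 18 alternatives (rows): Chd7 M300016343 (filled diamond), Chd7 M400002483 (open diamond), the range of the 10 paralog probes (bar) and their median (tick). The filled diamond lies below 0 in every row, from -2.86 to -0.52, and outside the bar except with the local background column.

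On the normalised log2 scale no control array was highest for all CHD probes. Quantile normalisation gives every array the same distribution, so an array that was high for all probes could not show there. Of the 12 probes, 3 were highest in control replicate 1, 5 in replicate 2 and 4 in replicate 3 among the controls on the log2 scale. The 5 that peaked in replicate 2 were Chd3 M200011854, Chd4, Chd7 M300016343, Chd8 M300010063 and Chd9, on the array with the largest share of probes above background (90.7%). In the deposited values these 5 and Chd1 were highest in control replicate 2 among the controls (Chd1 at 43, against 39 and 39).

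The probes whose pattern over the 6 arrays was most like that of Chd7 M300016343 were looked for among 19888 probes that were above background on all 3 control arrays. The highest Pearson correlations belonged to Rpl5-ps1 (r = 0.999), a ribosomal protein pseudogene whose probe may also read the parent gene, Gnpnat1 (0.989), an enzyme of hexosamine synthesis, Mob4 (0.989), a subunit of the STRIPAK phosphatase complex, Ctu2 (0.988), which modifies transfer RNA, and Fbxl4 (0.987), a mitochondrial F-box protein. Their differences were smaller than that of Chd7, between -0.30 (Fbxl4) and -0.18 (Gnpnat1) log2 units. Since these probes were picked by their correlation with M300016343 on the same arrays, the negative sign followed from the choice. With 6 arrays, 202 probes exceeded r = 0.9. Among the CHD probes, the second Chd7 probe came closest (r = 0.66), followed by Chd9 (0.53) and Chd8 M300010063 (0.50).

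Genes that work beside the CHD proteins were read from 8 lists, 92 distinct genes in all. None passed (0 of 92 in limma after adjustment), and at an unadjusted p under 0.05 there were 4 lower and 0 higher, or 4.35%, near the 5.61% of all probes. Their median was -0.03, and 63 of 92 lay below 0 where 50.4% of all probes did. These shares are unlike, since the 92 are the brightest probes of chosen genes and the 50.4% covers every probe tested. The genes share the same 6 arrays and are not independent, and the tilt below 0, here and in the single lists, was not tested. Among the 12 NuRD subunits tested, 9 lay below 0 with a median of -0.10. The methyl-CpG binding subunit Mbd2 stood at -0.35 (SE 0.18) and Mta2 at 0.26 (SE 0.13). Without control replicate 2 Mbd2 stood at -0.14, and Mta2 stood at 0.14 without Cre replicate 1 and at 0.39 without Cre replicate 2. Mbd2 was highest in control replicate 2, at 746 units against 425 and 417 in the other controls and 327 to 375 in Cre cultures.

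In the list of CHD8 and MLL partners, 6 of 9 lay below 0 (median -0.04). It held Kdm6a, a demethylase of H3K27 that works with the MLL3 and MLL4 complexes, which had the smallest p of the 92 genes. Kdm6a read 65, 74 and 69 in control and 53, 42 and 44 in Cre cultures, and the groups did not overlap. That held for 10.5% of all probes in either direction. Since Kdm6a was named for its small p, the separation adds no further support. The log2 difference of Kdm6a was -0.29 (SE 0.05), with an unadjusted limma p of 0.000941 and an adjusted p of 0.405. The insulator protein gene Ctcf stood at -0.15 (SE 0.06), and at -0.09 without control replicate 2.

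Among partners of CHD1 in transcript elongation, 5 of 7 lay below 0 (median -0.08). Cdc73, a subunit of the PAF1 complex, read 99, 109 and 114 in control and 82, 71 and 90 in Cre cultures, without overlap. Cdc73 too was named for its small p. Its log2 difference was -0.19 (SE 0.06; limma adjusted p = 0.739), while Ctr9 of the same complex stood at 0.12 (SE 0.10), and at 0.19 without control replicate 1, 0.08 without control replicate 2 and 0.04 without Cre replicate 1. In the BAF and PBAF group, whose PBAF form is known to bind with CHD7, 13 of 15 lay below 0 (median -0.05). Phf10, a PBAF subunit, read 230, 355 and 272 in control and 161, 176 and 236 in Cre cultures. Its log2 difference was -0.36 (SE 0.14; limma adjusted p = 0.889), or -0.24 without Cre replicate 1, and Smarcd2 stood at 0.22 (SE 0.10). The motor genes Smarca2 and Smarca4 stood at -0.05 and -0.02.

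In the ISWI group, 6 of 10 lay below 0 (median -0.05), with the ACF subunit Baz1a at -0.14 (SE 0.05; limma adjusted p = 0.848) and Pole3 at 0.12 (SE 0.06). In the INO80 and SWR1 group, 4 of 11 lay below 0 (median 0.01), with Ep400 at 0.05 (SE 0.03) and Vps72 at -0.09 (SE 0.07), or -0.15 without Cre replicate 1 and -0.04 without Cre replicate 2. Of the other SNF2 helicases, 11 of 12 lay below 0 (median -0.05), with Btaf1 at -0.26 (SE 0.11) and Shprh at -0.20 (SE 0.13), or -0.05 without control replicate 2. Genes linked to CHD7 in other cells were split, 9 of 16 below 0 with a median of -0.01. Gli2, a Hedgehog transcription factor, stood at 0.21 (SE 0.17), and at 0.05 without control replicate 2 and 0.38 without control replicate 3. Sox11 stood at 0.08 (SE 0.05), and at 0.04 without control replicate 2 and 0.05 without Cre replicate 3. Sox9 and Sox10 of this list are also markers of astrocytes and of the oligodendrocyte lineage.

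**Figure D5:**
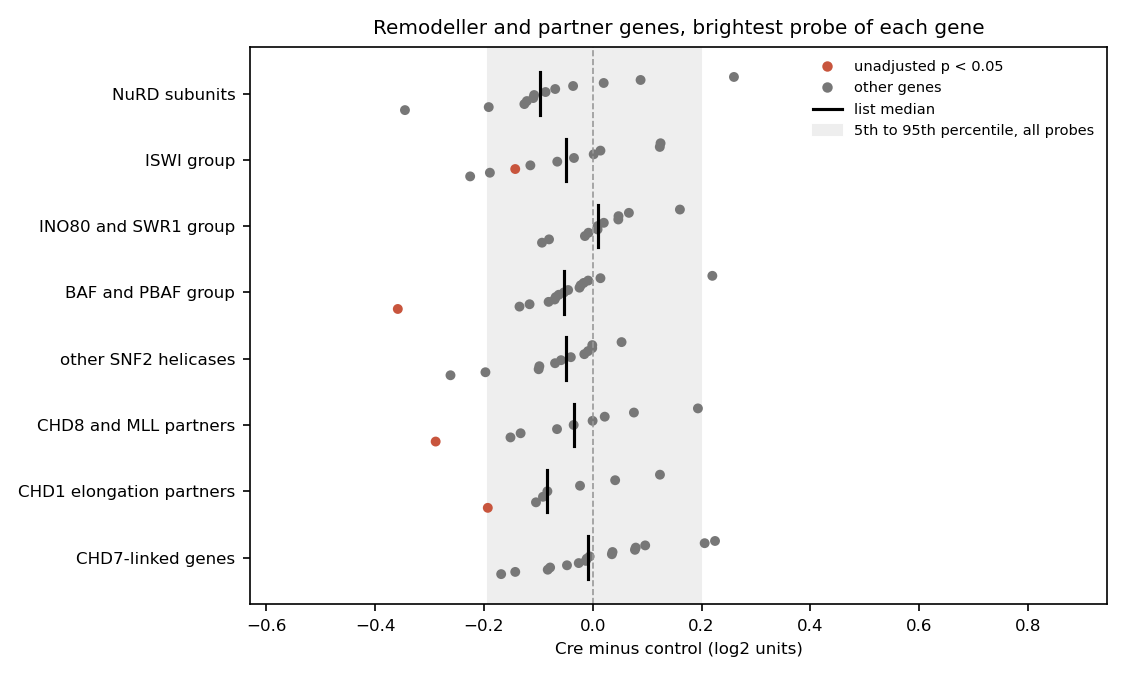
Log2 difference between Cre and control cultures of the genes of the 8 remodeller and partner lists, 1 point per gene (its brightest probe), red at an unadjusted limma p under 0.05, with the list median (black line) and the 5th to 95th percentile of all probes (grey, -0.19 to 0.20). The 4 red points, Baz1a, Phf10, Kdm6a and Cdc73, all lie below 0, and the medians lie between -0.10 and 0.01.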

How the data were processed

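The deposited scanner files give a spot median and a local background median intensity at 635 nm, neither subtracted from the other, per the file headers. The authors also deposited processed linear intensity values; set against the scanner files, a column equals the spot minus roughly the blank mean, scaled down by an array-specific factor (1.44 to 1.94) to a median of 25. No source used here says how the factors were set. Probe names came from the platform annotation; 20690 of 23473 probes had 1 symbol, 0 had several and 2783 had none, and 20556 matched RefSeq's GRCm38.p6 table with 0 changes. Coordinates are left out because no build is named, and probe sequences were not used here.

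Spots were corrected by normexp against the 2736 blanks (limma 3.58.1, R 4.3.3; offset 50), log2 transformed and quantile normalised. Scanner-marked spots (0 to 9 per array) were left out and spots of a probe averaged. The 20540 probes above background on at least 3 arrays were fitted with limma (two-sided, Benjamini-Hochberg over all). The fit was also run on data simulated with independent errors drawn from limma's own prior. That simulation leaves out the shared deviations of same-numbered arrays, so it does not check the fit for them. Levels of different probes were not used to compare RNA amounts between genes. M300016343 was set against the other CHD probes within arrays only to compare the groups. The local background column was an alternative only; others were offset, scaling, filters, array weights, a trended prior, the authors' values and leaving out each array.

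The labels do not say whether replicates were separate cultures or animals, and p-values then reflect only how far these samples spread, possibly for technical reasons. Same-numbered arrays deviated together from their group means (r = 0.498, 0.425 and 0.436), and were therefore treated as paired in an alternative with the replicate number as a block; nothing else states this pairing. Members, lists and tests were chosen with earlier results of these data known. Named genes were every CHD probe, the 2 genes of each list with the smallest unadjusted p and the 5 probes most correlated with Chd7 M300016343. Smarca2, Smarca4 and the cell type markers given with values of their own were named besides, after their values were seen.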

Additional observations from a re-analysis of the deposited data

How the results depend on the processing

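Chd7 M300016343 was below 0 under all 18 alternatives run, from -2.86 to -0.52, and its limma adjusted p stayed above 0.05 in each; with 1 array left out it ranged from -1.25 to -0.92. The counts of probes, CHD probes and list genes past the adjusted threshold were 0 under each alternative. With the replicate number as a block (replicate block) the count at an unadjusted p under 0.05 was 1918 instead of 1153, Chd7 M300016343 stayed at -1.13 (limma adjusted p = 0.391), and no adjusted call changed. The paralog median was -0.16 in the authors' values, where the median of all probes was itself shifted by -0.17, and ranged from -0.037 to 0.031 with 1 array left out. Applying the alternatives to the list genes and to the genes most like Chd7 was decided after seeing the data.

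None of the values that changed sign was past the threshold in any setting. With the local background they were Chd7 M400002483 (0.044), Chd3 M200011854 (0.058), Chd5 (-0.12), Chd6 (-0.079), Chd8 M400001836 (-0.0060), Chd9 (0.011), Mbd2 (0.0053), Vps72 (0.19), Smarcd2 (-0.37), Ctcf (0.13) and Gnpnat1 (0.0073). In the authors' values they were Chd3 M300020372 (-0.11), Chd4 (-0.056), Chd5 (-0.075), Chd6 (-0.10) and Pole3 (-0.035), all above that table's shifted median. With 1 array left out, ranges that crossed 0 were -0.14 to 0.035 for Chd1, -0.19 to 0.045 for Chd2, -0.025 to 0.21 for Chd3 M300020372, -0.18 to 0.074 for Chd3 M200011854, -0.033 to 0.24 for Chd4, -0.055 to 0.063 for Chd6 and -0.34 to 0.039 for Chd8 M300010063. The cause was not tested. Low signal over background limits Chd5, Chd6, Chd9, Chd7 M400002483 and Chd8 M400001836.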
